A study of Mus musculus with 4 samples.

Results

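A group of 10 genes of prostaglandin and leukotriene synthesis were followed in mouse female germline stem cells (FGSCs): Ptgs1, Ptgs2, Ptges, Ptges2, Ptges3, Hpgds, Alox5, Alox5ap, Ltc4s and Pla2g4a. The group was chosen by its place in 1 pathway and by the low Ptgs2 level of the knockdown libraries, so the contrast of the 2 groups had already been used and the genes' differences are given as a description. The deposited table held 8 of the 10 members among 12701 genes; Alox5 and Ltc4s were not analysed here. The data were RNA-seq libraries of total RNA from an FGSC line of ovarian origin. In all, 2 libraries came from FGSCs infected with a lentivirus carrying an shRNA against the long noncoding RNA Gm26917 (shGm26917), and 2 from FGSCs with the control shRNA (shNC); both groups therefore shared infection and an shRNA. The study calls its replicates biological. Neither the labels nor the methods say which hairpin was used or how replicates were grown, so tests measure only the spread between these libraries. Values are in CPM, a gene's reads scaled to a common library size.

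Eicosanoids are lipid signals made from arachidonate. Cytosolic phospholipase A2 frees the fatty acid from membranes, and the pathway then divides: the cyclooxygenases make prostaglandin H2, which terminal synthases turn into prostaglandin E2, prostaglandin D2, prostacyclin and other prostanoids, while 5-lipoxygenase and its partner FLAP lead to the leukotrienes. In the ovary the prostanoid branch is known for its role in ovulation, where cyclooxygenase-2 is induced in the follicle.

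The 4 libraries held about 12800000 to 17900000 reads as estimated from the spacing of low CPM values, which gives only an approximate depth because whole reads could not be recovered. The targeted RNA, Gm26917, had 136 and 104 CPM in shGm26917 libraries, against 155 and 157 CPM in shNC libraries. That difference (log2 fold change −0.39) did not pass the test (limma, adjusted p = 0.0696). In the values of Gm26917 the knockdown of the labels therefore appears only as a lower level in both libraries. Gm42418, taken as part of the same targeted locus, is described at the end. Of 12701 genes, 2930 passed at an adjusted p under 0.05, which is 23.1%. In each direction, 11.6% of genes were called higher and 11.5% lower. Without shGm26917 replicate 1 the count was 1821 and without shGm26917 replicate 2 it was 1584. Of 12 germ cell markers, 3 were listed, with a summed level of 61.8 and 61.8 CPM in shGm26917 libraries against 96.7 and 108 CPM in shNC libraries. Ddx4, Dazl, Pou5f1 and Prdm1 were not among the genes listed. The study examined Pou5f1 (Oct4), Ddx4, Ifitm3 (Fragilis) and Prdm1 (Blimp1) in its FGSCs by RT-PCR, and of these only Ifitm3 was listed. Ifitm3 made up most of that sum and was the 1 called, at 52.9 and 52.6 CPM in shGm26917 libraries against 86.8 and 99.6 CPM in shNC libraries, while Zbtb16 (log2 fold change −0.30) and Gfra1 (0.34) were not called. Of 14 mast cell markers 6 were listed. They summed to 1373 and 1441 CPM in shGm26917 libraries, against 1501 and 1554 CPM in shNC libraries. The sum joins opposite moves, with Cpa3 and Slc18a2 called higher and Il1rl1, Gata2, Mcpt8 and Ms4a2 called lower. Bulk RNA cannot tell fewer cells of a type from less RNA per cell, and the part of any cell type in the differences that follow was not tested.

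Of the 8 listed members, Ptgs2, Ptges and Ptgs1 were called lower in shGm26917 libraries, Hpgds was called higher, and Ptges2, Ptges3, Alox5ap and Pla2g4a were not called. The 4 calls stand beside a background of 23.1% of all genes, and nothing is read from the share because the contrast was used in the choice. In 5 members the groups did not overlap, as in 64.2% of all genes. The members' median log2 fold change was −0.05, against −0.01 over all genes.

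**Figure D1:**
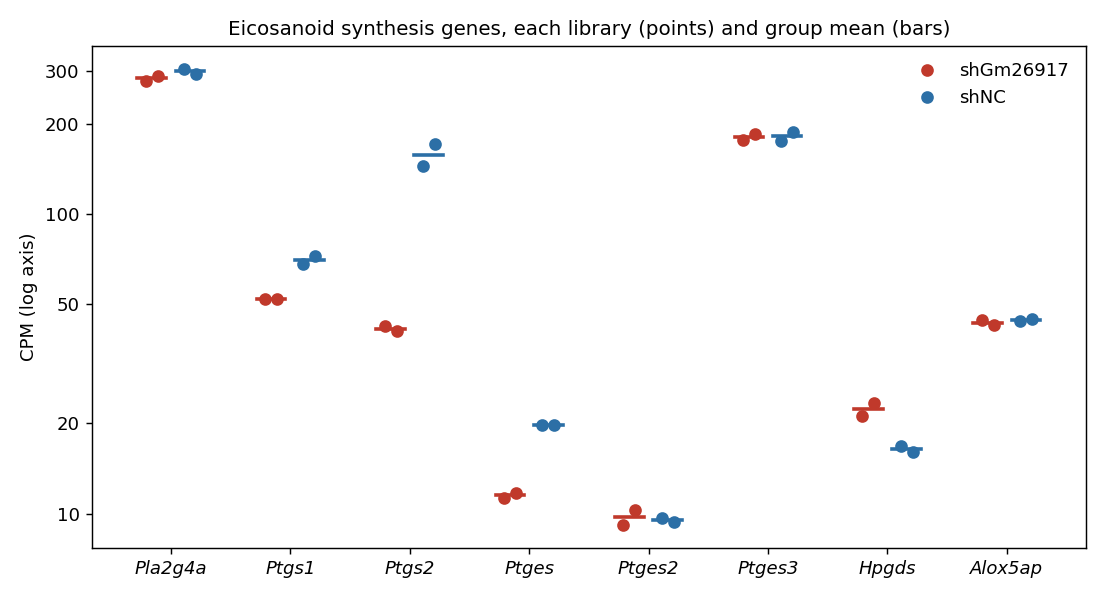
CPM of the 8 listed members on a log axis, with 1 point per library and a bar at the group mean, shGm26917 in red and shNC in blue (n = 2 each). Ptgs2 lies at 40.6 and 42.4 CPM in shGm26917 libraries and at 145 and 171 CPM in shNC libraries, the widest gap of the 8.

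**Figure D2:**
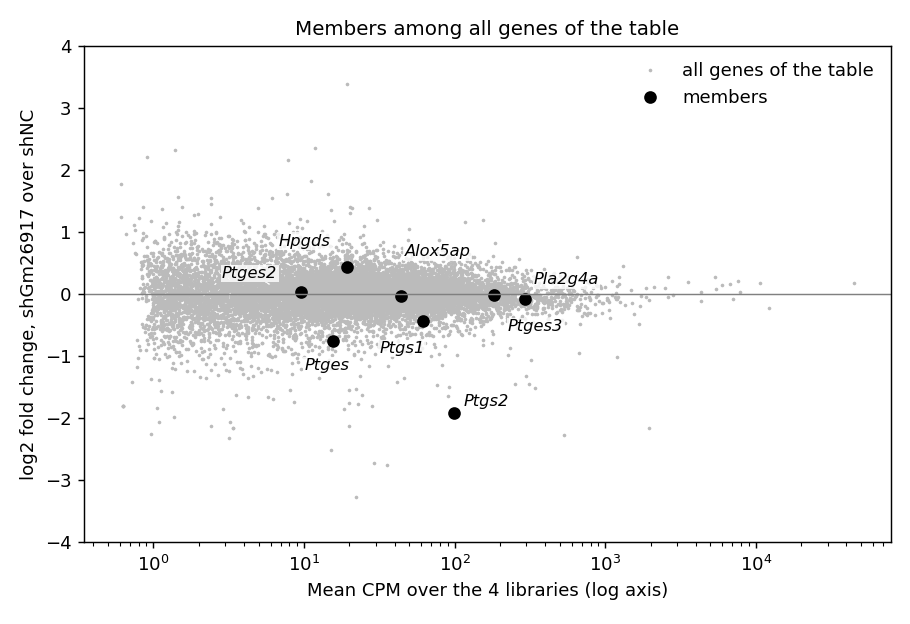
Log2 fold change of shGm26917 over shNC, on the log2(CPM + 0.5) scale, against mean CPM over the 4 libraries on a log axis, with all 12701 genes in grey and the members in black. Ptgs2 lies at −1.91, below the other members, and 15 genes lie lower.

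Arachidonate release was examined first. Pla2g4a, which encodes cytosolic phospholipase A2 and opens both branches, had 280 and 290 CPM in shGm26917 libraries and 306 and 294 CPM in shNC libraries. The 2 groups were separate by a narrow margin, and the log2 fold change was −0.08 (95% interval −0.21 to 0.06), which did not pass. Pla2g4a and Ptgs2 lie near each other on chromosome 1 (mm10), Pla2g4a at chr1:149829618-149961290 on the minus strand and Ptgs2 at chr1:150100031-150108227 on the plus strand, with 138.7 kb between them.

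Of the cyclooxygenases, Ptgs2 encodes the inducible enzyme. Ptgs2 had 42.4 and 40.6 CPM in shGm26917 libraries, against 145 and 171 CPM in shNC libraries. Both shGm26917 libraries were far below both shNC libraries, and the shNC pair was the more spread. The means were 41.5 ± 1.24 CPM in shGm26917 and 158.2 ± 18.5 CPM in shNC (SD, n = 2 each), so the shGm26917 mean was 26.2% of the shNC mean. The log2 fold change was −1.91 (95% interval −2.10 to −1.72), and 15 genes of the table had a lower one.

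Ptgs1 encodes the cyclooxygenase that many tissues express constitutively, and it lies at chr2:36230426-36252272 on the plus strand. Ptgs1 had 52.1 and 52.2 CPM in shGm26917 libraries, against 68.4 and 72.7 CPM in shNC libraries. The groups did not overlap, and the log2 fold change of −0.43 (95% interval −0.57 to −0.29) was called lower. Its exons share 148 bases with the antisense gene Gm43621, and whether counting used strand is not stated.

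Levels of different members were set side by side per kb of exon. On that scale Ptgs2 had 9.25 and 8.87 CPM per kb in shGm26917 libraries, against 31.7 and 37.4 CPM per kb in shNC libraries. Ptgs1 had 13.42 and 13.45 CPM per kb in shGm26917 libraries, against 17.6 and 18.7 CPM per kb in shNC libraries. The order of the pair therefore differed, with Ptgs2 under Ptgs1 in both shGm26917 libraries and above it in both shNC libraries. The ratio of Ptgs2 to Ptgs1 was 0.674 ± 0.0212 in shGm26917 and 1.90 ± 0.139 in shNC (SD, n = 2 each). Together the 2 genes had 22.7 and 22.3 CPM per kb in shGm26917 libraries, against 49.3 and 56.1 CPM per kb in shNC libraries. Ptgs2 made up 40.8% and 39.7% of that sum in shGm26917 libraries and 64.3% and 66.6% in shNC libraries.

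**Figure D3:**
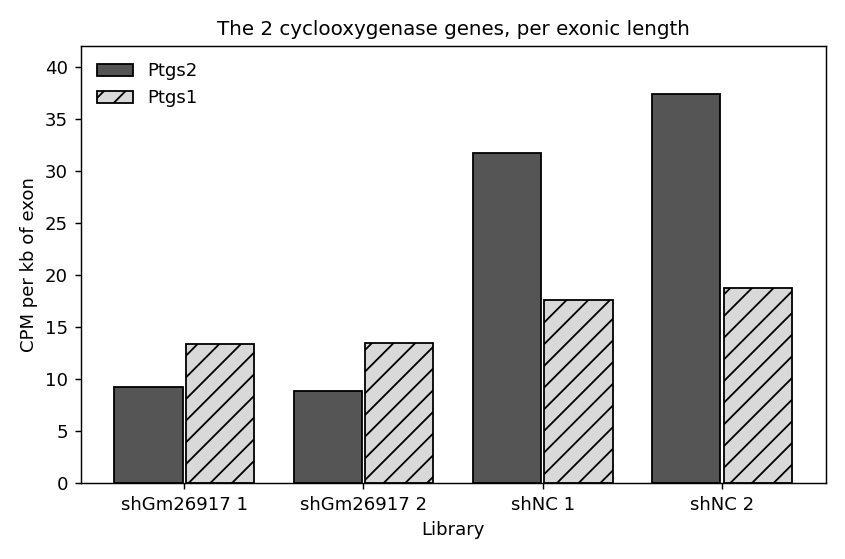
CPM per kb of exon of Ptgs2 (dark) and Ptgs1 (hatched) in each library, the shGm26917 pair on the left and the shNC pair on the right. In the shGm26917 libraries Ptgs2 is at 9.25 and 8.87 and Ptgs1 is the taller bar, and in the shNC libraries Ptgs2 is at 31.7 and 37.4 and is the taller.

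The start regions of the 4 called members are printed because these are the genes whose levels differed. Each window runs 5′ to 3′ on the gene's own strand, covering 250 bases before the start and 50 after it, from RefSeq on GRCm38.p6, whose table matched 9 of the 10 members. Ptgs2 is at chr1:150099781-150100080 (plus), Ptgs1 at chr2:36230176-36230475 (plus), Ptges at chr2:30903248-30903547 (minus) and Hpgds at chr6:65144681-65144980 (minus). The upstream edge of the RefSeq window of Ptges lies 26.3 kb inside the GENCODE gene. Capitals mark every match, on either strand, to 1 of 8 motifs.
Ptgs2: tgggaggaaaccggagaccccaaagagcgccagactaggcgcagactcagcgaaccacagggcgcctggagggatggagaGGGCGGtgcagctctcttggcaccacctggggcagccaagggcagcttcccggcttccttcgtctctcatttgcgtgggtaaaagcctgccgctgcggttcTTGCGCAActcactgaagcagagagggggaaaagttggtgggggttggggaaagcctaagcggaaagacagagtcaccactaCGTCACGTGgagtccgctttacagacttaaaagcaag
Ptgs1: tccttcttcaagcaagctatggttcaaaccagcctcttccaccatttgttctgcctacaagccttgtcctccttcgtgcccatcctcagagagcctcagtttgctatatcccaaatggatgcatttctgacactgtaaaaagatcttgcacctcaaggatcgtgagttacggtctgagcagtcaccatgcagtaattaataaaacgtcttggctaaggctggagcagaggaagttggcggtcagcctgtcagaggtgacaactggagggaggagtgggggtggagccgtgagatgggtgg
Ptges: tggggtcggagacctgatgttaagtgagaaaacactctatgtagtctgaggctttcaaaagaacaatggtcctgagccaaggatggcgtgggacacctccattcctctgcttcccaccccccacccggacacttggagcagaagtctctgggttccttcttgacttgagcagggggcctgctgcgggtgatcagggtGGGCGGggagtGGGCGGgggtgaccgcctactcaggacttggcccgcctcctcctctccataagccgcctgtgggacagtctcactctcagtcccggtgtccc
Hpgds: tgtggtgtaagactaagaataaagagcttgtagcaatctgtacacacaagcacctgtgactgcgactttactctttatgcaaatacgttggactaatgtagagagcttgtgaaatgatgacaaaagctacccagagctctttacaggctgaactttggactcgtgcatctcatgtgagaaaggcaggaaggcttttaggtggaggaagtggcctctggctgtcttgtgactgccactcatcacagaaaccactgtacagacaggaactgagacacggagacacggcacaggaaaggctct

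The 8 motifs were the TATA box TATAAA, the cAMP response element TGACGTCA, its shorter core CGTCA, the E-box CACGTG, the C/EBP site TTGCGCAA, the AP-1 site TGANTCA, the GC box GGGCGG and the EGR site GCGNGGGCG. The Ptgs2 window held a GC box at base −170 and TTGCGCAA at base −69 before the start, and CGTCA at base 14 after it, overlapping CACGTG at base 17. Of 32851 mouse windows of the same length, 0.18% held TTGCGCAA, 7.15% CACGTG, 20.8% CGTCA and 35.7% GGGCGG. The Ptges window held GC boxes at bases −53 and −42, and the Ptgs1 and Hpgds windows held none of the 8. A match is a description of letters and says nothing here of binding.

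The 3′ UTR of Ptgs2 is known for AU-rich elements, which carry the pentamer ATTTA and bind proteins that shorten or lengthen the life of the mRNA. It held 14 copies of ATTTA in 2445 bases, and 3.3% of 11351 listed genes with a 3′ UTR had as many. The densest 30 bases, at bases 12 to 41 of the UTR on chromosome 1, are shown with the pentamers in capitals.
Ptgs2 AU-rich stretch: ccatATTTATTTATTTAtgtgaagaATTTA

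The other listed members held fewer pentamers: Pla2g4a and Ptges3 held 4 each, as did Ptges2, Alox5ap and Hpgds held 2 each, and Ptgs1 and Ptges held 0. The median listed gene held 2. Per kb the short 3′ UTR of Pla2g4a was denser, at 9.03 pentamers per kb against 5.73 for Ptgs2 and 1.29 for the median gene.

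Prostaglandin E2 has 3 synthase genes in the group, Ptges at chr2:30889471-30929863 (minus), Ptges2 at chr2:32395896-32405772 (plus) and Ptges3 at chr10:128058954-128077272 (plus). Ptges, the inducible membrane enzyme that is often coupled to cyclooxygenase-2, had 11.3 and 11.7 CPM in shGm26917 libraries, against 19.8 and 19.7 CPM in shNC libraries. The replicates lay close to each other and the groups did not overlap. The log2 fold change was −0.76 (95% interval −0.95 to −0.57), called lower. Ptges2, a second membrane-associated synthase, had 9.17 and 10.3 CPM in shGm26917 libraries and 9.67 and 9.37 CPM in shNC libraries. The groups overlapped, and the interval of the log2 fold change ran between −0.21 and 0.27. Ptges3, a cytosolic synthase that is also a co-chaperone of Hsp90, had 177 and 185 CPM in shGm26917 libraries and 175 and 189 CPM in shNC libraries. These groups overlapped too, with an interval between −0.15 and 0.13. Reads of Ptges3 may be split with its processed pseudogene Ptges3-ps, listed at 18.4 and 13.7 CPM in shGm26917 libraries and 16.5 and 11.4 CPM in shNC libraries, so the Ptges3 level is uncertain.

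Hpgds encodes the haematopoietic prostaglandin D synthase, known from mast cells and other immune cells, and was the member called higher. It lies at chr6:65117293-65144908 on the minus strand. Hpgds had 21.2 and 23.4 CPM in shGm26917 libraries, against 16.8 and 16.01 CPM in shNC libraries. The groups did not overlap, and the log2 fold change was 0.43 (95% interval 0.24 to 0.63). Without shGm26917 replicate 2 it was 0.36 and was no longer called. Per kb of exon, the ratio of Hpgds to Ptges was 1.19 ± 0.0552 in shGm26917 and 0.507 ± 0.0143 in shNC (SD, n = 2 each). Hpgds was thus the higher of that pair in shGm26917 and Ptges the higher in shNC. Ptges3, another prostaglandin E synthase gene, stood above both in each group, at 81.7 CPM per kb in shGm26917 and 82.1 in shNC. Of the mast cell markers, the 6 that were listed all passed the test, against 23.1% of all genes. Cpa3 and Slc18a2 were higher, and Il1rl1, Gata2, Mcpt8 and Ms4a2 were lower. The call of Ms4a2, which was listed only through the shNC libraries, is not read as a result.

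On the leukotriene side Alox5ap, at chr5:149264767-149288153 on the plus strand, was the 1 member listed. It encodes FLAP, the membrane protein that presents arachidonate to 5-lipoxygenase. Alox5ap had 44.2 and 42.7 CPM in shGm26917 libraries and 44.1 and 44.8 CPM in shNC libraries. The groups overlapped, and the 95% interval of the log2 fold change was −0.17 to 0.10. Its exons share 189 bases with the antisense gene Gm19719. The synthesis steps of Alox5, the lipoxygenase itself, and Ltc4s, the leukotriene C4 synthase, were not analysed here, so the 2 branches could be set against each other only through Alox5ap.

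Ranked by CPM per kb in shGm26917 libraries, Ptges3 was highest at 81.7 ± 2.34, followed by Pla2g4a at 44.5 ± 1.12, Alox5ap at 30.6 ± 0.778 and Ptgs1 at 13.4 ± 0.0212 (SD, n = 2 each). Below them stood Ptgs2 at 9.06 ± 0.271, Hpgds at 3.47 ± 0.250, Ptges at 2.92 ± 0.0750 and Ptges2 at 1.92 ± 0.155. In shNC libraries Ptges3 at 82.1 ± 4.29 and Pla2g4a at 46.9 ± 1.39 again stood first, but Ptgs2 came next at 34.5 ± 4.04. Alox5ap at 31.3 ± 0.389 was within 1 SD of Ptgs2, followed by Ptgs1 at 18.2 ± 0.799, Ptges at 5.03 ± 0.0212, Hpgds at 2.55 ± 0.0827 and Ptges2 at 1.88 ± 0.0410. The other neighbours in each order were farther apart than their SDs. These lengths are union exons of GENCODE M21 and not the effective lengths of the authors' counting.

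The rest of the pathway, and RNA-binding proteins reported to act on Ptgs2 mRNA, were taken from lists of 105 symbols. Of these, 4 were second symbols of a gene already on the lists. The table held 58 of the genes, here called pathway genes. Of the 58, 8 rose (13.8%) and 10 fell (17.2%), against a background of 11.6% and 11.5%, and 40 did not pass. The RNA-binding proteins made up 11 of the 58, with 1 of the rises and 3 of the falls. The rises include Alox15, which was listed only through the shGm26917 libraries. The lists were written with earlier results of these data known, so nothing is read from the counts of single lists. The gene with the highest mean CPM of each list is also named, a choice by reads and not by level per length. All adjusted p values here come from limma over the 12701 genes.

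Of the other prostanoid synthases, 6 were listed, 3 fell and 0 rose, against 11.5% and 11.6% of all genes. Ptgis, prostacyclin synthase, had 12.5 and 11.001 CPM in shGm26917 libraries, against 19.5 and 19.1 CPM in shNC libraries (log2 fold change −0.70, adjusted p = 0.00274). Akr1c18, a mouse aldo-keto reductase best known for breaking down progesterone, had 3.20 and 3.67 CPM in shGm26917 libraries, against 8.41 and 8.87 CPM in shNC libraries (−1.22, adjusted p = 0.00118). Gstm2, a glutathione transferase gene, fell by 0.58 on the log2 scale (adjusted p = 0.0425), a call that was lost without either shGm26917 library or without shNC replicate 1. Akr1b3, an aldose reductase gene named for its CPM, was at 107 CPM in shGm26917 and 109 CPM in shNC on average and was not called.

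On the prostanoid receptor list, 2 of 4 listed genes rose and 0 fell. On the list of prostanoid export and breakdown, 2 of 5 rose and 0 fell. Over all genes, 11.6% were called higher and 11.5% lower. Ptger3, the EP3 receptor for prostaglandin E2, had 49.0 and 52.4 CPM in shGm26917 libraries, against 40.7 and 36.2 CPM in shNC libraries (log2 fold change 0.40, adjusted p = 0.0103). Ptgfrn, a membrane protein that associates with the prostaglandin F receptor, rose by 0.65 (adjusted p = 0.0427), which was lost without either shGm26917 library or without shNC replicate 1. Abcc4, a transporter that exports prostaglandins, had 37.7 and 37.1 CPM in shGm26917 libraries, against 24.1 and 21.2 CPM in shNC libraries (0.72, adjusted p = 0.00160). Ptgr2, a reductase of prostaglandin metabolites, had 32.7 and 35.1 CPM in shGm26917 libraries, against 23.1 and 19.4 CPM in shNC libraries (0.67, adjusted p = 0.00350). Ptgir, the prostacyclin receptor, was at 0.11 (adjusted p = 0.162), and Zadh2, of the breakdown genes, at −0.07 (adjusted p = 0.599).

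Downstream of 5-lipoxygenase, 8 genes were listed, 1 rose and 1 fell, against 11.6% and 11.5% of all genes. Cysltr1, a receptor for cysteinyl leukotrienes, had 7.47 and 7.30 CPM in shGm26917 libraries, against 4.02 and 3.11 CPM in shNC libraries (log2 fold change 0.96, adjusted p = 0.00421). Lta4h, the hydrolase that makes leukotriene B4, had 44.7 and 45.05 CPM in shGm26917 libraries, against 54.9 and 53.2 CPM in shNC libraries (−0.27, adjusted p = 0.0153, lost without either shGm26917 library at 0.0809 and 0.0750). Abcc1, which exports leukotriene C4, was at 0.19 (adjusted p = 0.0655). Of 6 other lipoxygenase and epoxide genes 1 passed: Alox15, the reticulocyte-type lipoxygenase, had 2.87 and 3.19 CPM in shGm26917 libraries, against 0.942 and 0.933 CPM in shNC libraries (1.30, adjusted p = 0.00261). Ephx1, an epoxide hydrolase, was at 0.15 (adjusted p = 0.366).

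Arachidonate release and recycling held 18 listed genes, of which 1 rose, 3 fell and 14 did not pass. Over all genes 11.6% were called higher and 11.5% lower. Dagla, a diacylglycerol lipase, had 4.62 and 4.74 CPM in shGm26917 libraries, against 7.85 and 8.13 CPM in shNC libraries (log2 fold change −0.71, adjusted p = 0.00488). Acsl4, an acyl-CoA synthetase that prefers arachidonate, was at −0.27 (adjusted p = 0.0166) and Anxa2, an annexin, at −0.22 (adjusted p = 0.0306). Pla2g12a, a secreted phospholipase A2, rose by 0.32 (adjusted p = 0.0128). The calls of Acsl4 and Pla2g12a were lost without shGm26917 replicate 2, and that of Anxa2 without either shGm26917 library.

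RNA-binding proteins, most of them known for binding AU-rich mRNA such as that of Ptgs2, were all listed, 11 of 11. Among these 1 rose, 3 fell and 7 did not pass, where 11.6% of all genes were called higher and 11.5% lower. The 3 that fell were the tristetraprolin family, which promotes decay of AU-rich mRNA. Zfp36, tristetraprolin itself, had 7.72 and 7.55 CPM in shGm26917 libraries, against 12.5 and 17.3 CPM in shNC libraries (log2 fold change −0.90, adjusted p = 0.00602). Zfp36l1 had 21.2 and 22.002 CPM in shGm26917 libraries, against 29.8 and 33.4 CPM in shNC libraries (−0.54, adjusted p = 0.00413). Zfp36l2 had 103 and 98.8 CPM in shGm26917 libraries, against 130 and 137 CPM in shNC libraries (−0.41, adjusted p = 0.00335). Celf2 was at 0.20 (adjusted p = 0.0413), lost without either shGm26917 library. Rbm3 was at 0.08 (adjusted p = 0.627).

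**Figure D4:**
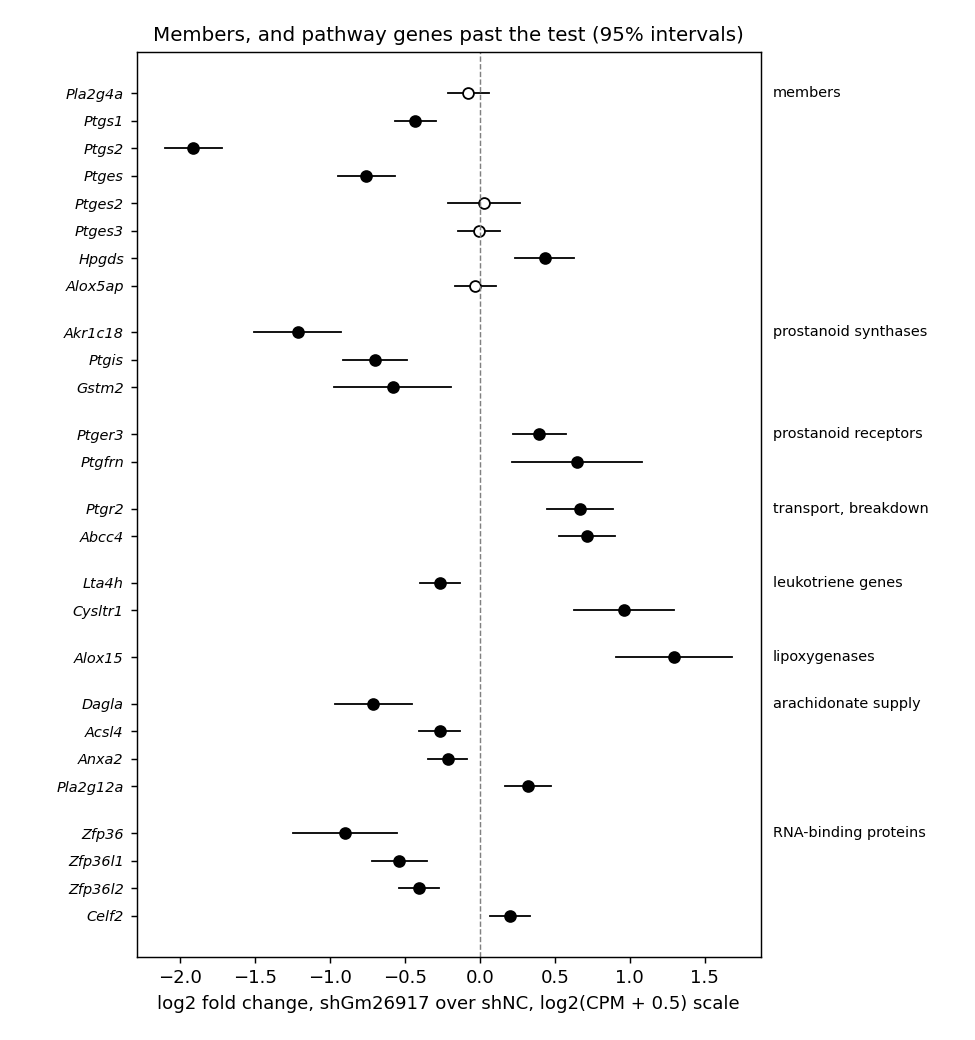
Log2 fold change of shGm26917 over shNC with 95% intervals, on the log2(CPM + 0.5) scale, for the 8 listed members and the 18 pathway genes past the test, grouped by list. Filled points passed at an adjusted p under 0.05 and open points did not. Ptgs2 is lowest at −1.91 and Alox15, listed only through the shGm26917 libraries, is highest at 1.30.

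The 5 protein-coding genes whose pattern over the 4 libraries was most like that of Ptgs2 were sought by the distance between centred log2(CPM + 0.5) values, where 0 would be the same pattern. Nearest was Egr1, an immediate early transcription factor, at a distance of 0.150, with 12.3 and 12.5 CPM in shGm26917 libraries against 42.2 and 46.3 CPM in shNC libraries. Hbegf, an EGF receptor ligand, followed at 0.155, then the matrix metalloproteinase genes Mmp3 at 0.172 and Mmp13 at 0.268, and the semaphorin gene Sema7a at 0.294. Ptgs2 itself lay 1.92 from a flat pattern. Likeness over 4 libraries in 2 groups reflects mainly the difference between the groups.

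Markers of other cell types were also examined. Both listed granulosa cell markers, Inhba and Fst of 9, were called lower, as were 11.5% of all genes. Their summed level was 23.4 and 21.9 CPM in shGm26917 libraries against 44.5 and 48.4 CPM in shNC libraries. Foxl2, Fshr, Amh, Cyp19a1, Inha, Nr5a1 and Amhr2 were not among the genes listed. The sum rests on Inhba and Fst alone and is not read as a level of granulosa cells. Of 10 fibroblast markers 7 were listed, summing to 420 and 423 CPM in shGm26917 libraries against 457 and 485 CPM in shNC libraries, with Dcn at the highest CPM. Thy1 was called lower (log2 fold change −0.78, limma adjusted p = 0.000837), Col3a1 was called higher (0.44, adjusted p = 0.0111) and the other 5 were not called. Of 12 macrophage and leukocyte markers 4 were listed, with overlapping sums of 456 and 447 CPM in shGm26917 libraries and 468 and 439 CPM in shNC libraries. Ptprc, at the highest CPM, and Adgre1 carried most of these sums and were not called, nor was Cd14. Cd68 was called lower, at 24.0 and 25.1 CPM in shGm26917 libraries against 40.6 and 39.4 CPM in shNC libraries (log2 fold change −0.69, limma adjusted p = 0.000961). Csf1r and Itgam were not among the genes listed. Whether these cell types had a part in the members' levels was not tested.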

How the data were processed

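Total RNA libraries from 2 shGm26917 and 2 shNC samples of an FGSC line were compared. The table was made by the authors: Bowtie2 2.1.0, RSEM 1.2.28, edgeR and the mm10 build are named, without order or settings, in the submitters' processing notes. The deposited CPM values are scaled to a normalized library size, and listed genes had at least 1.00 CPM in their second-highest library, so genes under that level were absent. Listed genes summed to between 755200 and 771700 CPM a library, and depth was only estimated from the spacing of low values. Of values under 2 CPM, 33.5% to 67.8% lay within 0.02 of a whole multiple of that spacing, so no count test was run. Further deposited columns hold the comparison made by the authors, as a log2 fold change, a linear fold change (a ratio), a p-value and an adjusted p-value. None of these was used.

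CPM values were tested with limma 3.58.1 in R 4.3.3 on log2(CPM + 0.5), with a variance trend and robust empirical Bayes, adjusted by Benjamini-Hochberg over all 12701 genes, with calls at an adjusted p under 0.05. Log2 fold changes on this scale understate changes of low genes. An exact permutation test of 2 against 2 cannot go below 0.333 (two-sided), so none was run. The fit was tested on simulated data. Gene positions and exonic lengths came from GENCODE M21 (mm10) and start regions from RefSeq on GRCm38.p6.

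The members and lists were chosen with earlier results of these data known, so members carry no p. Named genes were all listed members, every pathway gene past the test, the gene with the highest mean CPM of each list, and the 5 protein-coding genes at a mean of 5 CPM or more nearest to Ptgs2 in pattern. Further cell type markers were named to show what their sums hold. Motifs were chosen for description. Alternatives were pseudocounts of 0.1 and 1, 3 scalings, a filter of 5 CPM in 2 libraries, a replicate block and leaving out each library.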

Additional observations from a re-analysis of the deposited data

How the results depend on the processing

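None of the called members and called pathway genes reversed direction under any alternative run. The other genes named in the text were not followed through the alternatives. Of the members not called, Ptges2 (0.03) turned to −0.05 without shGm26917 replicate 2, and Ptges3 (−0.01) to 0.01 under upper-quartile scaling, 0.02 without shGm26917 replicate 1 and 0.05 without shNC replicate 2, all on the log2 scale. The 4 called members stayed at 4 under both pseudocounts, the 3 scalings, the filter and the replicate block, and numbered 3 to 4 when each library was left out, with Hpgds lost without shGm26917 replicate 2. Genes called over the table numbered 2930, with 2727 to 3027 under the pseudocounts, scalings and filter, and 1584 to 3505 when each library was left out. The pathway genes called, 18, numbered 15 to 19 under the same settings and 12 to 20 without each library. With a library left out, 1 group is a lone library assumed to vary like the other group. The replicate numbers of the titles marked little shared deviation (r = 0.0569 between the groups' differences over genes, genes not being independent replicates). That value cannot show whether libraries were prepared in pairs, since each group gives only 1 difference per gene. With the replicate block 3982 genes, 4 members and 23 pathway genes were called. Medians of all log2 fold changes ran between −0.01 and 0.01 over the settings. Depth limits the genes near 1 CPM most, such as Alox15 in shNC libraries.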

Other observations

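The neighbourhood of Ptgs2 on mouse chromosome 1 was described after its values were seen. Besides Pla2g4a, the table listed Ptgs2os2, Odr4, Tpr and Prg4 within 500 kb, and none of these passed the test. Ptgs2os2, a noncoding gene on the strand opposite to Ptgs2, lies at chr1:150159043-150164948 and does not overlap it. Ptgs2os2 had 2.84 and 2.24 CPM in shGm26917 libraries and 3.14 and 3.42 CPM in shNC libraries (log2 fold change −0.32, limma adjusted p = 0.194). Tpr, a nuclear pore gene, had 482 and 450 CPM in shGm26917 libraries and 516 and 432 CPM in shNC libraries (−0.02, adjusted p = 0.897). Prg4, the lubricin gene, was at −0.38 (adjusted p = 0.210) at a level near 1 CPM, and Odr4 at −0.03 (adjusted p = 0.776).

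Gm42418, another RNA of the table, had 729 and 687 CPM in shGm26917 libraries against 2882 and 3462 CPM in shNC libraries (log2 fold change −2.16, limma adjusted p = 5.57e-05), a wider gap than that of Gm26917 itself, at 136 and 104 CPM in shGm26917 libraries against 155 and 157 CPM in shNC libraries. Whether reads were shared between Gm26917 and Gm42418 in the counting was not tested. Leaving Gm26917, Gm42418 and the mitochondrial genes out of the library sizes changed none of the 4 member calls.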
